A study of Mus musculus with 8 samples.

Results

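Transcripts of 8 genes of the caspase system were described in dorsal skin of mouse embryos that lack or carry the glucocorticoid receptor (GR, encoded by Nr3c1): the caspases Casp2, Casp4, Casp6, Casp8, Casp9 and Casp12, the adaptor Apaf1 and the caspase inhibitor Xiap. They were taken by gene symbol, and 19 of 45037 probe sets carried 1 of these symbols alone. They are 8 of the 18193 genes measured. The group was chosen by the difference of Casp6 between the genotypes, known to be higher without the receptor, so for all 8 the differences between the genotypes are a description with no p-value. The study compared 4 arrays of GR-/- embryos (numbers 5, 17, 25 and 26) with 4 arrays of GR+/+ embryos (numbers 4, 6, 28 and 29) at embryonic day 18.5. All embryos were of the strain B6D2/F1 and are called littermates, and the labels do not describe the GR allele, the litters or whether an array holds pooled embryos. Values are log2 expression from RMA, a method that background-corrects, equalises and summarises the several short probes of a probe set, on Affymetrix Mouse Genome 430 2.0 arrays. A difference of 1 on this scale is a 2-fold difference.

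Caspases are proteases that cut after aspartate and are made as inactive precursors, so a transcript level does not give the amount of active enzyme. Initiator caspases start the cascade: caspase-8 is activated at death receptors, caspase-9 on the apoptosome that Apaf1 builds around released cytochrome c, and caspase-2 on its own adaptor complex. Effector caspases such as caspase-6, which cuts lamin A, dismantle the cell, and Xiap blocks caspase-9 and effector caspases other than caspase-6. Caspase-4 (also called caspase-11 in mice) and caspase-12 belong to the inflammatory branch, in which caspase-4 senses bacterial lipopolysaccharide inside the cell. In skin, keratinocytes end as dead, cornified cells by a pathway that differs from classical apoptosis, and the epidermis of mice becomes inflamed when caspase-8 is lost.

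The upstream sequence of Casp6 is shown because GR acts as a DNA-binding transcription factor and Casp6 carried the difference that gave the group its name. Sequences are those of RefSeq for assembly GRCm38.p6, and all 8 genes were found there, with 11 annotated start sites. In the 250 bases before the Casp6 start (chr3:129901165-129901414, plus strand), neither AGAACA, the single arm of the receptor's recognition element, nor the whole element, AGAACA followed after 3 bases by TGTTCT, was present on either strand. The capitals mark a GC box (GGGCGG) that begins 205 bases before the start:
Casp6: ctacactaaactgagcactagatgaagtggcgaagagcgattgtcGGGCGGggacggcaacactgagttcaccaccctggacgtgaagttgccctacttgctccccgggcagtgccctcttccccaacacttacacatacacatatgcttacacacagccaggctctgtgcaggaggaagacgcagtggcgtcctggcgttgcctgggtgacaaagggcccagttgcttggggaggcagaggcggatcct
Among the 11 start sites of the group, 2 had the single arm within 250 bases, both of them starts of Xiap (chrX:42067589-42067628 and chrX:42071202-42071241, plus strand). Another annotated start of Xiap, with the window chrX:42068148-42068397 between those of these 2, did not have it. The 2 with the arm are named first and second below. They are shown with the arm, here on the reverse strand as TGTTCT, in capitals, 230 and 17 bases before their starts:
Xiap, first start: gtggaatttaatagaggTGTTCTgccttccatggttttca
Xiap, second start: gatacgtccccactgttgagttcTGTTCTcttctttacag
The single arm occurred in 16.1% of all 32851 promoter windows of that length, the whole element in 3 of them and in 0 of the 11, and the GC box in 32.7% of all and in 6 of the 11. TATAAA occurred in 12.4% of all and in 1 of the 11, a start of Xiap. A match of letters is not a binding site, and a missing match says only that these letters are not in this window.

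As a check of the labels, Nr3c1 was lower in every GR-/- array than in every GR+/+ array at 3 of its 6 probe sets, for instance by 1.86 ± 0.12 log2 (SE, n = 4 per group, limma adjusted p = 0.000831) at the second brightest. Which of them fall within the disruption was not analysed here, and those outside it check nothing. Of the 5 keratinocyte markers, Krt5, Krt14, Krt1 and Krt10 read between 12.4 and 14.8 log2 on all arrays and did not pass an adjusted p of 0.05. Among these, Krt1 was lower in GR-/- arrays without overlap, at -0.15 ± 0.08 log2 (SE, limma adjusted p = 0.283). The fifth, Trp63, which encodes the p63 of basal keratinocytes, was higher in GR-/- arrays without overlap, by 0.60 ± 0.12 log2 (SE, limma adjusted p = 0.0372). The mean of 12 skeletal muscle markers was 11.7 to 12.4 log2 in GR-/- arrays and 12.6 to 12.7 in GR+/+ arrays, without overlap, and 4 of the 12 were lower past an adjusted p of 0.05. Xist, which marks the inactive X chromosome, was high on 1 array of each genotype, at 12.6 log2 on GR-/- 17 and 13.2 on GR+/+ 6. The mean of 3 melanocyte markers was 8.41 to 9.41 in GR-/- arrays against 7.80 to 8.34 in GR+/+ arrays. Dct (0.71 log2) and Tyrp1 (1.19) did not overlap between the genotypes, while Mlana (0.06) did. The mean of 3 erythroid markers was 6.84 to 7.28 against 7.38 to 8.44, also without overlap. Of these, Hbb-y alone (-1.86) did not overlap. Alas2 (-0.63) and Hba-a1 (-0.07) did, and Hba-a1 was dim, with means of 4.33 in GR-/- and 4.40 in GR+/+ arrays. Of 6 macrophage markers, Cd163 alone passed an adjusted p of 0.05. It was lower without overlap, at -2.13 ± 0.29 log2 (SE, limma adjusted p = 0.0112). Of 5 mast cell markers, Hdc alone passed, at -1.41 ± 0.22 log2 (SE, limma adjusted p = 0.0167), also without overlap. The means of both lists overlapped between the genotypes. The part of these cell types in the values below was not tested, apart from a fit with the muscle mean as a covariate. In whole skin, fewer cells of a type and less RNA per cell cannot be told apart.

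Casp6, the effector caspase, was higher in all 4 GR-/- arrays, and replicates of a genotype lay close together. At its brighter probe set it read 9.64, 9.70, 9.75 and 9.74 log2 in GR-/- 5, 17, 25 and 26, against 8.94, 8.96, 8.89 and 8.99 in GR+/+ 4, 6, 28 and 29. The lowest GR-/- value lay above the highest GR+/+ value by several times the range within either genotype. The means were 9.71 ± 0.05 in GR-/- and 8.95 ± 0.04 in GR+/+ skin (SD, n = 4 each), a log2 fold change of 0.76 ± 0.07 (SE) or 1.69-fold. The residual SD of Casp6, 0.045 log2, was smaller than that of 99.2% of genes, whose median was 0.149. A small spread makes a difference easier to call, and the difference of Casp6 chose the group, so nothing is read from this rank. The log2 fold change was 0.77 without the Xist-high arrays. With the muscle mean as a covariate it was 0.80. At its dimmer probe set the values were 6.40, 6.41, 5.90 and 6.18 in GR-/- arrays against 6.50, 6.33, 6.25 and 6.26 in GR+/+ arrays. There the groups overlapped, with a log2 fold change of -0.12 ± 0.12, so the difference was seen at 1 of 2 probe sets. Which part of the transcript each of them covers was not analysed here.

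**Figure D1:**
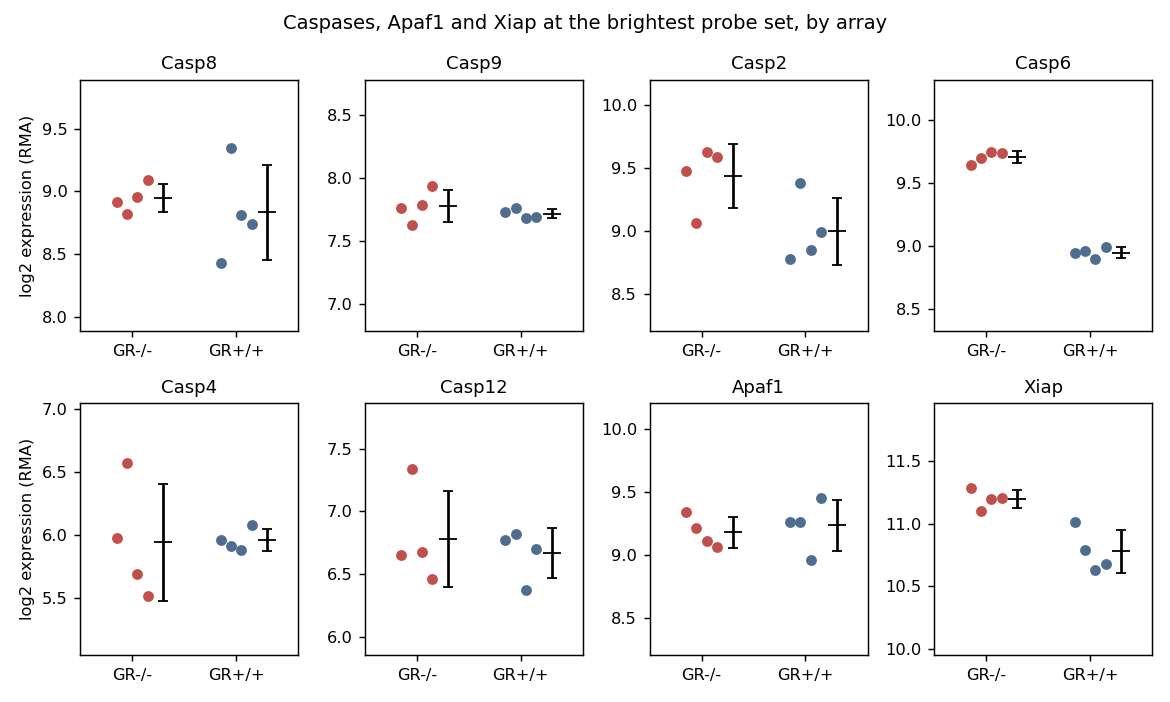
Log2 expression of each gene at its brightest probe set, by array, GR-/- (red) left of GR+/+ (blue); dots are arrays, and the black bar beside them is the mean ± SD (n = 4). Every panel spans 2 log2 units. Casp6 and Xiap are the panels in which the groups do not overlap.

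In the fit over all genes, Casp6 was the 1 of 8 members past an adjusted p of 0.05, and none was lower past it. With the muscle covariate Casp6 was not past it. The muscle means of the genotypes do not overlap, so that fit leans on differences within the genotypes. Without the covariate, the background share of genes past an adjusted p of 0.05 was 2.96% in either direction and 1.40% higher. Nothing is read from the count of 1 of 8, or from the member counts that follow, because the contrast chose the group. By probe sets the count was 3 of 19, all higher (Casp6 and 2 of Xiap), beside 3.85% of all probe sets in either direction and 2.22% higher. The brightest of Xiap is 1 of these, so the same values passed when adjusted over probe sets and not over genes. Groups did not overlap for 2 members, Casp6 and Xiap, both higher, beside 13.0% of all genes in either direction and 6.69% higher. Among probe sets they did not overlap for the same 3 of 19, beside 12.6% of all in either direction and 6.80% higher. The median log2 fold change was 0.11 over the 8 members and -0.0045 over all genes.

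Among the initiators, Casp8 and Casp9 had overlapping values in the genotypes. Casp8, the initiator of the death receptors, read 8.91, 8.82, 8.95 and 9.09 log2 in GR-/- arrays and 8.43, 9.35, 8.81 and 8.74 in GR+/+ arrays. GR+/+ 6 was the highest and GR+/+ 4 the lowest of all 8, so the groups overlapped, and the log2 fold change was 0.11 ± 0.17 (SE). Casp9, the caspase of the apoptosome, read 7.77, 7.63, 7.79 and 7.94 in GR-/- arrays and 7.73, 7.76, 7.69 and 7.69 in GR+/+ arrays, with a log2 fold change of 0.06 ± 0.08. Its other probe sets gave 0.05 ± 0.09 and 0.15 ± 0.10, and at all 3 the genotypes overlapped. Casp9 also varied little within a genotype, with a residual SD of 0.091 log2 that 85.1% of genes exceeded.

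Casp2, the initiator activated on an adaptor complex with Pidd1 and Cradd, was higher on average in GR-/- skin, and the arrays overlapped. It read 9.47, 9.06, 9.62 and 9.58 log2 in GR-/- arrays and 8.78, 9.38, 8.85 and 8.99 in GR+/+ arrays. GR-/- 17 was the lowest of its group and GR+/+ 6 the highest of its own, and these are the arrays high in Xist. The log2 fold change was 0.44 ± 0.16 (SE, 1.36-fold) with all arrays and 0.69 without those 2 arrays, an alternative chosen after seeing the data. With the muscle mean as a covariate it was 0.11, and with the level of the Y-linked gene Eif2s3y as a covariate it was 0.44. Its adaptors Pidd1 and Cradd, picked with their values in view, gave -0.04 ± 0.09 and 0.05 ± 0.08 log2 (limma adjusted p of 0.839 and 0.799).

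Apaf1, the scaffold of the apoptosome, gave a different picture at each of its probe sets. The brighter read 9.34, 9.21, 9.11 and 9.06 log2 in GR-/- arrays and 9.26, 9.26, 8.96 and 9.45 in GR+/+ arrays, a log2 fold change of -0.05 ± 0.11 (SE). The dimmer read 7.71, 7.20, 7.88 and 7.93 in GR-/- arrays and 6.75, 7.67, 6.57 and 6.46 in GR+/+ arrays, a log2 fold change of 0.82 ± 0.27. At the dimmer probe set GR+/+ 6 stood among the GR-/- arrays, while the other 3 GR+/+ arrays lay below all GR-/- arrays.

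Xiap, the inhibitor, is X-linked and was higher in all GR-/- arrays at its 2 brightest probe sets. The brightest read 11.28, 11.10, 11.19 and 11.21 log2 in GR-/- arrays against 11.01, 10.79, 10.63 and 10.68 in GR+/+ arrays, a log2 fold change of 0.42 ± 0.10 (SE, 1.34-fold). The second read 8.47, 8.28, 8.43 and 8.50 against 7.87, 7.53, 7.05 and 6.97, a log2 fold change of 1.06 ± 0.19 (2.09-fold), and GR+/+ arrays were spread more widely there than GR-/- arrays. The third ran the other way at -0.23 ± 0.12, with GR-/- 17 inside the GR+/+ range. The 4 dimmest, with mean levels from 3.93 to 4.39 log2 over the 8 arrays, had log2 fold changes from 0.04 to 0.39, and their groups overlapped. At the brightest probe set the Xist-high arrays GR-/- 17 (11.10) and GR+/+ 6 (10.79) were the lowest of their group and the second highest of theirs, so the level did not separate them from the rest.

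**Figure D2:**
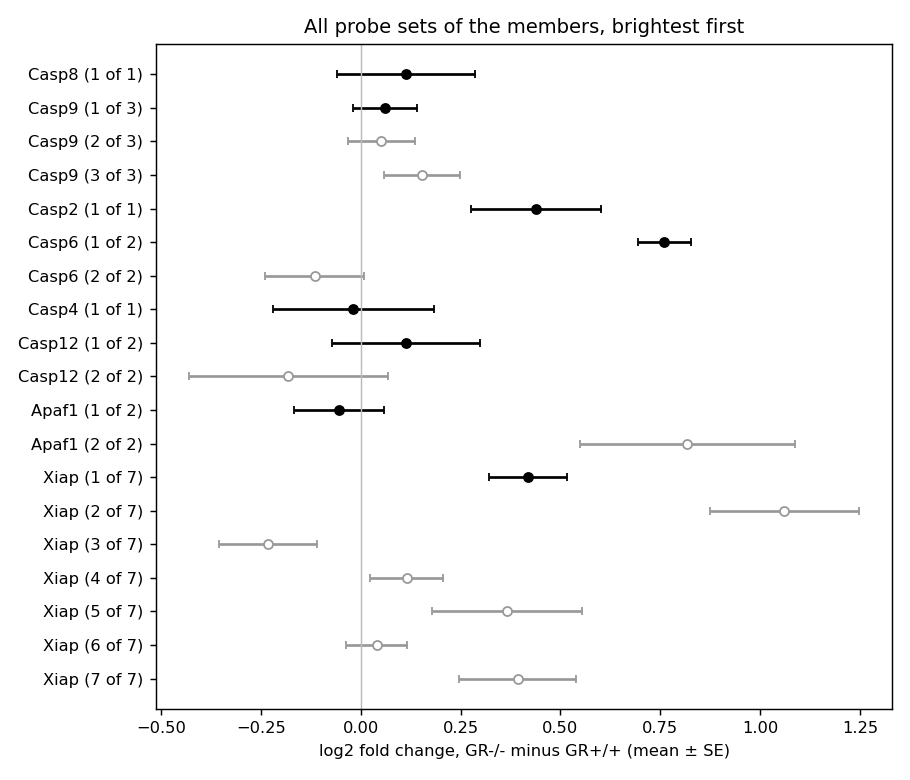
Log2 fold change, GR-/- minus GR+/+, with its SE for each of the 19 probe sets, brightest first within a gene; filled points are the brightest. Casp6 (0.76 against -0.12), Apaf1 (-0.05 against 0.82) and Xiap (1.06 to -0.23) differ between their own probe sets, while the 3 of Casp9 lie together.

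**Figure D3:**
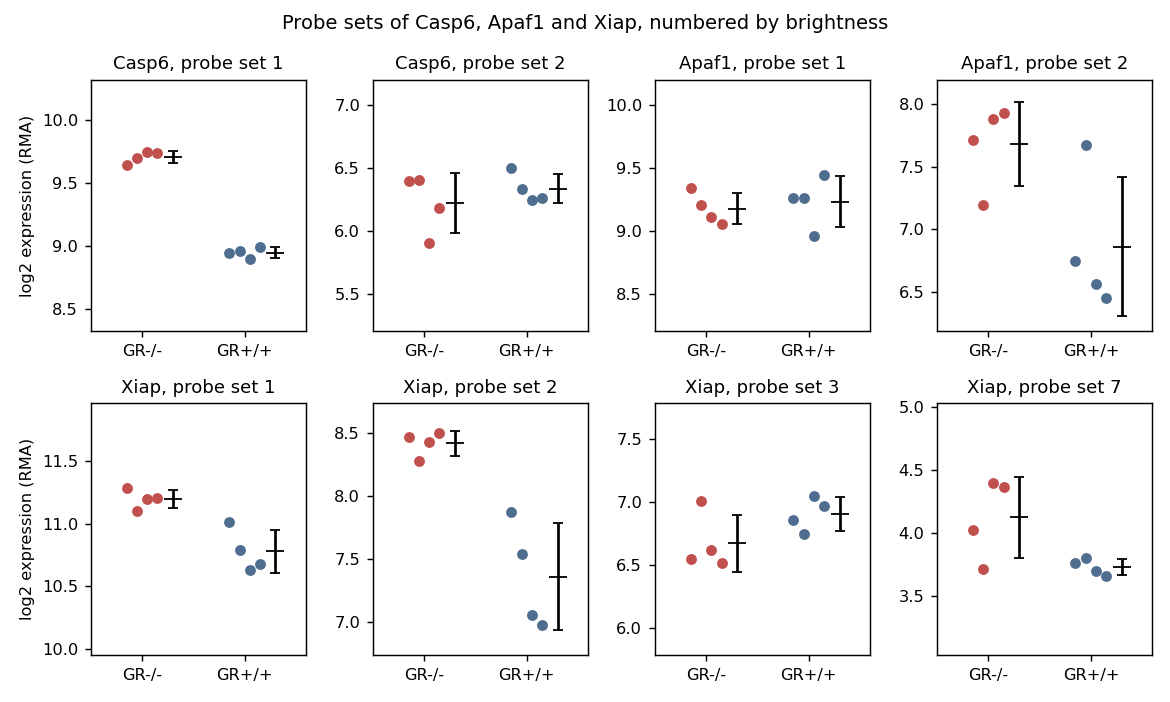
Log2 expression by array at single probe sets of Casp6, Apaf1 and Xiap, numbered by brightness, GR-/- (red) left of GR+/+ (blue), with mean ± SD (n = 4). The groups are apart at Casp6 probe set 1 and at Xiap probe sets 1 and 2 and overlap in the other 5 panels.

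Among the inflammatory caspases, Casp4 and Casp12, which are neighbouring genes on chromosome 9, overlapped between the genotypes and were highest on a single GR-/- array. Casp4 read 5.98, 6.57, 5.69 and 5.52 log2 in GR-/- arrays and 5.96, 5.91, 5.88 and 6.08 in GR+/+ arrays, a log2 fold change of -0.02 ± 0.20 (SE). Casp12 read 6.66, 7.34, 6.68 and 6.47 at its brighter probe set in GR-/- arrays and 6.78, 6.82, 6.38 and 6.70 in GR+/+ arrays, a log2 fold change of 0.11 ± 0.19. At its dimmer probe set Casp12 read 5.77, 6.84, 5.77 and 5.54 in GR-/- arrays and 6.19, 6.17, 6.04 and 6.25 in GR+/+ arrays, a log2 fold change of -0.18 ± 0.25. GR-/- 17 was the highest of all 8 arrays at all 3 of these probe sets. Without it, Casp4 had a log2 fold change of -0.23 and Casp12 one of -0.07, so the sign at Casp12 rested on that array. The mean of 5 neutrophil markers was also highest on GR-/- 17, at 8.57 log2, against 5.73 to 6.42 on the other GR-/- arrays and 6.05 to 7.75 on GR+/+ arrays. The mean of 2 adipocyte markers was highest there as well, at 12.4, against 8.19 to 10.7 on the other GR-/- arrays and 8.24 to 12.2 on GR+/+ arrays. So was that of the 3 melanocyte markers, at 9.41. At 13.582 against 13.575 on GR+/+ 4, the fibroblast mean was also highest on GR-/- 17, by little. The muscle (12.4), macrophage (8.95) and erythroid (7.28) means were highest there among GR-/- arrays, but not among all 8. Those of keratinocyte, mast cell, T cell and endothelial markers were not highest on GR-/- 17. None of the 5 neutrophil markers differed between the genotypes past an adjusted p of 0.05, and the lowest single neutrophil marker value was 5.35 log2. With the muscle mean as a covariate, Casp4 had a log2 fold change of 0.62 and Casp12 one of 0.75. Apart from that fit, the part of these cell types in the levels of Casp4 and Casp12 was not tested. Casp1, the gene on the other side of Casp4 and the caspase that matures interleukin-1 beta, read 7.32 on GR-/- 17, within the range of the other GR-/- arrays (7.11 to 7.46). It was picked with its values in view.

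**Figure D4:**
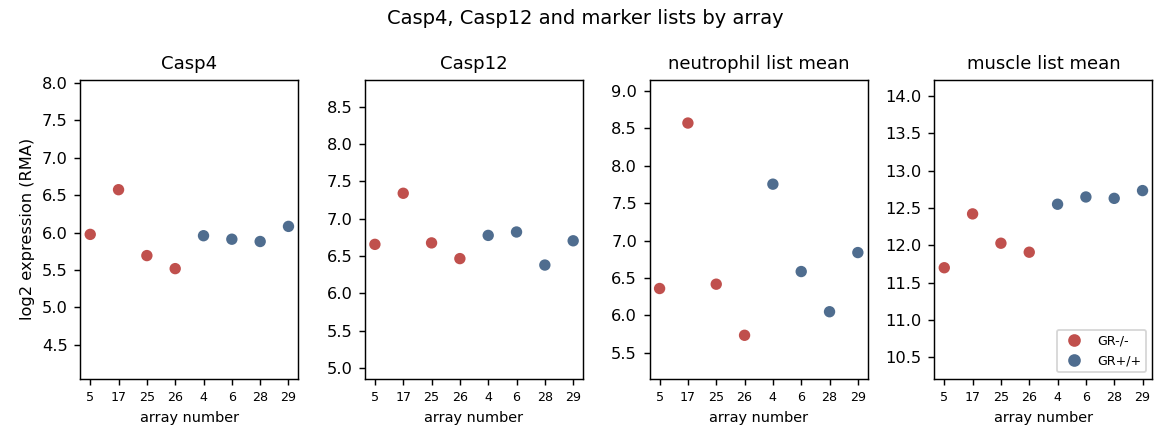
Log2 expression of Casp4 and Casp12 (brightest probe set) and the mean of the neutrophil and skeletal muscle marker lists on each array, GR-/- (red) left of GR+/+ (blue), numbered as in the labels; each panel spans the same log2 range. GR-/- 17 is highest in the first 3 panels, and the muscle mean of every GR-/- array lies below that of every GR+/+ array.

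Genes whose levels followed Casp6 were looked up across all genes other than the 8, by Pearson's r over the 8 arrays. Ccny had the highest r (0.994), before Lonrf1 (0.984), Lin7c (0.979) and Pcgf1 (0.977), and all 4 were higher on average in GR-/- skin, by 0.29 to 0.62 log2. These r carry the genotype difference that chose Casp6. Over deviations from the genotype means, other genes came first: 4930403D09Rik (0.989), Slc36a1 (0.980), Trip10 (0.962) and Slc24a3 (0.954). They are the highest of all genes measured over 8 arrays, a description without a test.

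The rest of the pathway was read from 10 lists, of whose 114 genes 102 were measured. In the fit over all genes 0 of the 102 rose, 3 fell and 99 passed in neither direction. Beside this, 2.96% of all genes were past the threshold, 1.56% lower. Without adjustment, 8 were higher and 14 lower by limma at p below 0.05, beside 10.5% of all genes higher and 11.1% lower at that limit. The median log2 fold change was -0.04 over the 102 and -0.0045 over all genes.

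The falls lay in the inflammasome and pyroptosis list, with 2 of 12 measured, and among the mitochondrial factors, with 1 of 8. Nlrp10, an NLR-family protein without the ligand-sensing repeats of its relatives, fell by 1.70 ± 0.26 log2 (SE, 3.25-fold, limma adjusted p = 0.0161). It read 7.52, 6.81, 8.01 and 7.58 log2 in GR-/- arrays against 8.80, 9.14, 9.66 and 9.13 in GR+/+ arrays, without overlap. Il18, the gene of the cytokine interleukin-18, fell by 2.12 ± 0.26 (limma adjusted p = 0.00859), with 8.54, 8.85, 9.27 and 7.94 in GR-/- arrays against 10.75, 10.50, 11.19 and 10.65 in GR+/+ arrays. Endog, the mitochondrial endonuclease that can cut nuclear DNA, fell by 0.58 ± 0.12 (limma adjusted p = 0.0444), with 7.53, 7.84, 7.56 and 7.31 against 8.31, 7.95, 8.23 and 8.09. Its other probe set gave -0.23 log2 (adjusted p = 0.128), and its call was lost in 7 of the 8 fits without 1 array, all but that without GR-/- 17. Nlrp10 lost its call without GR+/+ 29 (adjusted p = 0.056) and Il18 kept it in all 8 such fits. With the muscle mean as a covariate all 3 lost their calls, in a fit where 8 of all genes were past the threshold, against 539 without it. The muscle means of the genotypes do not overlap, so the lost calls cannot be read as an effect of muscle. The log2 fold change was then -2.26 for Nlrp10 (adjusted p = 0.174), -1.72 for Il18 (adjusted p = 0.381) and -0.31 for Endog (adjusted p = 0.755), so it was larger in size for Nlrp10 and smaller for the other two. The other 10 genes of the list did not pass. Those with p below 0.05 unadjusted were the pore-formers Gsdma, at -0.92 ± 0.26 (adjusted p = 0.0859), and Gsdme, at 0.63 ± 0.19 (adjusted p = 0.101). Gsdma did not overlap between the genotypes, and its dimmer probe set gave -1.16 ± 0.22 (adjusted p = 0.0316 over all probe sets). The adaptor Pycard at 0.08 ± 0.13 (adjusted p = 0.801) and the pore-former Gsdmd at -0.05 ± 0.09 (adjusted p = 0.818), like Gsdma and Gsdme, were picked with their values in view.

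In the remaining 8 lists 0 genes were past the threshold by limma. The unadjusted counts below stand beside the same 10.5% higher and 11.1% lower of all genes. Unadjusted, limma gave 1 higher and 0 lower of 8 other caspases and caspase regulators, 1 and 2 of 14 in the death receptor list, 1 and 0 of 11 pro-apoptotic Bcl2 relatives, and 0 and 2 of 5 anti-apoptotic ones at p below 0.05. The counts were 0 and 0 of 7 other inhibitor of apoptosis genes, 3 and 1 of 17 substrates and effectors, 1 and 3 of 11 endoplasmic reticulum stress genes, and 0 and 2 of 9 p53 pathway genes. The gene with the smallest p among the substrates and effectors was Parp1, the DNA repair enzyme that caspases cleave, at 0.64 ± 0.15 log2 (SE, adjusted p = 0.0529). Over all probe sets the limma adjusted p of the same values of Parp1 was 0.0476, past the threshold. Parp1 read 10.69, 10.41, 10.76 and 11.05 in GR-/- arrays against 9.99, 10.37, 9.94 and 10.05 in GR+/+ arrays. Its other 3 probe sets gave 0.37, 0.02 and -0.28 log2, and the 0.02 came from a probe set with means of 10.05 in GR-/- and 10.03 in GR+/+ arrays, nearly as bright as the first. Lmna, which encodes the lamin A that caspase-6 cuts, gave -0.30 ± 0.11 log2 (adjusted p = 0.167) at its brightest probe set and was picked with its values in view. All 5 of its probe sets were lower on average, from -0.15 to -1.11 log2, and the last of these, -1.11 ± 0.22, was without overlap (adjusted p = 0.0335 over all probe sets). Elsewhere the smallest p belonged to the stress sensor Ern1 at -0.42 ± 0.10 (adjusted p = 0.0628), the p53-induced nuclease Aen at -0.62 ± 0.16 (adjusted p = 0.0683), and Bcl2l1, the gene of the survival factor Bcl-xL, at -0.29 ± 0.08 (adjusted p = 0.0907). A dimmer probe set of Bcl2l1 ran the other way, at 0.58 ± 0.09 (adjusted p = 0.0196 over all probe sets). Among the others, the smallest p belonged to the death receptor adaptor Tradd at -0.38 ± 0.11 (adjusted p = 0.0945), Bid, which carries the caspase-8 signal to mitochondria, at 0.45 ± 0.17 (adjusted p = 0.158), the signalling adaptor Bcl10 at 0.21 ± 0.08 (adjusted p = 0.18), and the inhibitor of apoptosis Birc7 at 0.19 ± 0.09 (adjusted p = 0.234).

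By probe sets, 7 of the 225 of these 102 genes were higher past the threshold and 7 lower, beside 2.22% and 1.63% of all probe sets. The higher ones belonged to Add1, Bak1, Bcl2, Bcl2l1, Cflar, Hsp90b1 and Parp1. The lower ones belonged to Endog, Gsdma, Il18, Lmna, Mcl1 and Nlrp10, with 2 of Mcl1, and this count was added after seeing the data.

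Casp14, the caspase of cornifying keratinocytes that helps to process filaggrin, was picked with its values in view. It read 10.33, 9.54, 10.84 and 10.50 log2 in GR-/- arrays and 10.38, 10.29, 11.01 and 10.39 in GR+/+ arrays, with GR-/- 17 lowest. The log2 fold change was -0.22 with a 95% interval from -0.82 to 0.39 (limma adjusted p = 0.714), so the data do not settle its direction.

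**Figure D5:**
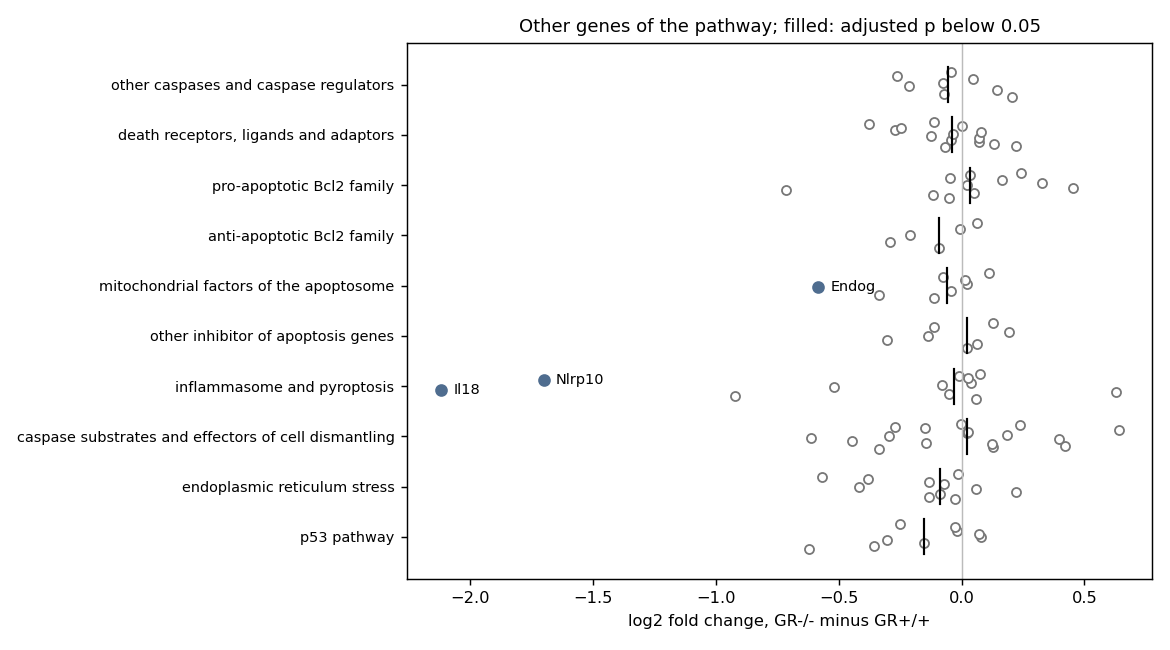
Log2 fold change, GR-/- minus GR+/+, of each measured gene in 10 lists around the caspases; filled points passed an adjusted p of 0.05 over all genes, and the black line is the list's median. The filled points are Il18, Nlrp10 and Endog, all lower in GR-/- skin.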

How the data were processed

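Dorsal skin RNA was measured on 8 single-colour arrays, grouped by the genotype in the labels. The authors deposited log2 values from RMA, per the submitters' processing notes; its version and any filters: not given in the sources used here. Folds of dim probe sets are likely understated by RMA, which also hides shifts shared by most transcripts. After 64 control probe sets were left out, 45037 remained: 34945 with 1 gene symbol in the platform annotation, 932 with several and 9160 with none listed. Symbols were updated by identifier through RefSeq (GRCm38.p6), which held 18032 of 18193 genes. Limma 3.58.1 in R 4.3.3 fitted genotype alone to all probe sets (two-sided), read per gene at the brightest probe set, with Benjamini-Hochberg adjustment over all genes and a threshold of 0.05. The fit was run on simulated data with independent noise for each probe set, which cannot test differences shared across an array. The members and lists were chosen with earlier results of these data known. Genes were named by rule: the 8 members, each list's genes past the threshold or else its smallest p, and the 4 genes most like Casp6 by each measure. The labels do not state that arrays come from separate embryos, so p-values measure the spread between these samples. The number of arrays limits precision. The alternatives changed normalization, a filter on dim probe sets, the variance prior, array weights, the threshold, the probe sets read, 2 covariates and the arrays included. The Y-linked covariate was Eif2s3y alone.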

Additional observations from a re-analysis of the deposited data

Results flagged for a closer look

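Each of 44 groups of 4 arrays (the 19 probe sets of the 8 genes and the 3 pathway genes past the threshold, in both genotypes) was searched for a single array far from the other 3, and 2 were found. Chance gives about 1 in 20. At the dimmer Casp12 probe set GR-/- 17 read 6.84 log2, against 5.77 for the next highest array of its genotype and 5.54 for the lowest. At the fourth brightest Xiap probe set GR+/+ 29 read 4.44 log2, against 4.29 for the other 3 arrays of its genotype.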

How the results depend on the processing

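No paired analysis was possible because the label numbers of the 2 genotypes are not shared. The log2 fold change of Casp6, 0.76, lay between 0.74 and 0.78 in the 8 fits without 1 array. It was 0.80 with the muscle covariate, where Casp6 was not past the threshold. The mean of all probe sets of Casp6 gave 0.32, by construction, since it includes the dimmer probe set. For Apaf1 that mean gave 0.38 against -0.05. With the muscle covariate, Casp2 had 0.11, Casp4 0.62, Casp9 -0.10, Casp12 0.75 and Xiap 0.22; the list means of the genotypes do not overlap, so that fit leans on differences within them. Casp2 ran from 0.37 to 0.56 in the 8 fits without 1 array, and had 0.56 with array weights and 0.69 without the Xist-high arrays. Xiap ran from 0.37 to 0.50 in the 8 fits without 1 array and had 0.46 with array weights. In 17 alternative fits, Casp6 was past the threshold in 16, and Casp2 and Xiap in 3 each. Both passed with array weights and without GR-/- 17, Casp2 also without the Xist-high arrays and Xiap also without GR+/+ 4. The other members passed in 0. Nothing is read from these counts, because the contrast chose the group. The count of genes past the threshold, 539, was 46 at an adjusted p below 0.01, 1944 with array weights, 884 with probe sets averaged, 8 with the muscle covariate and 1706 without the Xist-high arrays, and ran from 79 (without GR-/- 25) to 1640 (without GR-/- 17) without 1 array. It was 295, 321, 142 and 104 without GR+/+ 4, 6, 28 and 29, and 186 and 154 without GR-/- 5 and 26. The count of pathway genes, 3, was 1, 12, 9, 0 and 13 under the first 5 of these settings, and ran from 1 (without GR+/+ 29) to 10 (without GR-/- 17). The cause was not tested. Casp4, below the median level, gave no value with the filter on dim probe sets. Signal near background limits the 4 dimmest Xiap probe sets.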
